A study of Arabidopsis thaliana with 21 samples.

Results

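A group of 10 heat shock response genes was followed through germination of wild-type Arabidopsis thaliana seeds, with and without ethylene, a gaseous plant hormone. They were taken by locus and are 7 small heat shock proteins, the chaperone HSP101 and the heat shock factors HSFA9 and HSFA2, 10 of the 37336 genes counted in each library. All 10 passed the filter on low counts, which left 19298 genes to be tested. The study holds 21 polyA RNA libraries in 7 groups of 3: dry seeds, seeds imbibed in water for 6, 16 or 24 h, and seeds imbibed with ethylene for 6, 16 or 24 h. All groups shared the genotype, and seeds were kept under long days. No seed age, ethylene dose or light level for the imbibition was given, and part of the dry seeds' label is an abbreviation that was not explained. Replicates are called biological in the design text, but no source names separate seed lots, and p-values then cover only the spread between these libraries, which may be technical. Ethylene was compared with water at each time, in the terms of the series title, to ask what the hormone changes.

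The library labelled ethylene 16 h replicate 2 stood apart from its group before any result on these genes is read. Pearson's r of its log2 levels across genes was 0.9938 to 0.9947 against each library of water at 16 h, and 0.9085 to 0.9131 against the 2 that share its label. A water library, 24 h replicate 3, differed in markers of photosynthetic tissue, with LHCB1.1 at 117 CPM and LHCB3 at 44.9 CPM where the other 19 libraries reached at most 0.688 and 2.39 CPM, while the third such marker, RBCS1A, read 439 CPM there and 423 and 434 CPM in the rest of its group. It was kept, and results that rest on it are also given without it. Otherwise results are given on 20 libraries without the one labelled ethylene 16 h replicate 2, which leaves 2 replicates with ethylene at 16 h, and counts with that library, called the one that stood apart below, put back are given beside those that rest on it. The libraries held 11687098 to 21198649 sense reads on genes. Every share of all genes tested below comes from the fit of 20 libraries, also where a count from another fit stands beside it. A list called seed reserves below held 11 genes for cruciferins, albumins, oleosins and EM proteins. The EM proteins are late embryogenesis abundant proteins and not reserves in the strict sense. The mRNAs of the list summed to 180549 to 198260 CPM (counts scaled to the size of the library) in dry seeds. Markers of the seed coat were near 0 throughout (at most 1.25 CPM summed). Whole seeds were sampled, so fewer cells of a type and less RNA per cell cannot be told apart in any value below.

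Small heat shock proteins bind unfolding proteins and keep them soluble, and HSP101 pulls proteins back out of aggregates together with the HSP70 system. Outside heat stress, plants make several of them as the seed matures and dries, under the seed-specific factor HSFA9, which is known to act downstream of the seed regulator ABI3. HSFA2 is instead known from vegetative tissue as a heat-induced factor that sustains the response. Heat shock factors bind repeats of the letters GAA and TTC, and ABI3-type factors bind the RY element.

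These and 1 further element were therefore looked for in the 250 bases before each gene's annotated start in RefSeq's TAIR10.1 (the counts were made on TAIR10, and genes were matched by locus). The heat shock element core, GAANNTTC or TTCNNGAA, stood in 4 of the 10 promoters (HSP21, HSP17.6A, HSP17.4 and HSFA2), and in 16.2% of the 27437 promoters of that length. The RY element, CATGCA on either strand, also stood in 4 (HSP22.0, HSP17.6II, HSP17.4 and HSFA9) against 8.43% of promoters. The abscisic acid response element core ACGTG, on either strand, stood in 4 (HSP22.0, HSP23.6-MITO, HSP17.4 and HSFA2) against 22.9%. HSP17.4 alone of the 10 held all 3 kinds. These matches describe letters in a window and not binding. The promoters of 4 genes are shown because they mark the extremes of the data: HSP17.4, among the most abundant of these mRNAs in dry seeds, HSP21, the one that fell closest to 0, and the 2 factors themselves. Capitals mark the heat shock element core in HSP21, HSP17.4 and HSFA2 and the RY element in HSFA9.
HSP17.4, chr3:16984868-16985117, minus strand: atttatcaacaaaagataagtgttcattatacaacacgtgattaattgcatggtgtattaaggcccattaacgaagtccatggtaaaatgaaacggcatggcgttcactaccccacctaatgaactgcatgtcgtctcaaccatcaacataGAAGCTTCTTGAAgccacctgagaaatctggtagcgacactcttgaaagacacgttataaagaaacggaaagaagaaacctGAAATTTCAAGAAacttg
HSP21, chr4:13819972-13820221, minus strand: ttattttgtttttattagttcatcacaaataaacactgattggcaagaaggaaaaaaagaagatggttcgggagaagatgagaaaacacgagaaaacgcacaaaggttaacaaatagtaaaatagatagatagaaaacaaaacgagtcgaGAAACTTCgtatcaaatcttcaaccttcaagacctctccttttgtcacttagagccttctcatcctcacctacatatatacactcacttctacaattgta
HSFA2, chr2:11135466-11135623, plus strand: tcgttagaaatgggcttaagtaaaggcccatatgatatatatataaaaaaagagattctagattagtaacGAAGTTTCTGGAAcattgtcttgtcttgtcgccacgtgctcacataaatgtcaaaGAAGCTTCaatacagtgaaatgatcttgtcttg
HSFA9, chr5:21943733-21943982, plus strand: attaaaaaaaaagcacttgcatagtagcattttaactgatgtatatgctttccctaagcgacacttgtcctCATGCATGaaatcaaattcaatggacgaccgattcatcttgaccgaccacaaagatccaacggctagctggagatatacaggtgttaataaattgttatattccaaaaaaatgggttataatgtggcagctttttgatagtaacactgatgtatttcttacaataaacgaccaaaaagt
In HSP17.4 the capitals are 2 pairs of overlapping matches, the nearer pair beginning 18 and 13 bases before the start. HSFA2 has an overlapping pair from 88 bases before the start and a single match 33 bases before it. Only 158 bases are shown for HSFA2, since an exon of another gene covers the rest of its window. HSFA9 carried no heat shock element core in its window, and its 2 RY matches overlap in the 8 capitals.

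Dry seeds held very unequal amounts of these mRNAs. Per kilobase of exon, HSP17.4 (AT3G46230) stood at 13107 ± 859.5 CPM and HSP17.6A (AT5G12030) at 11733 ± 774 (SD, n = 3), cytosolic small heat shock proteins of class I and class II. HSP23.6-MITO (AT4G25200), of the mitochondrion, followed at 639.7 ± 37.5, HSP101 (AT1G74310) at 453 ± 17.2 and HSFA9 (AT5G54070) at 417 ± 41.5. The ranges of the last 2, per kilobase, overlapped. HSP22.0 (AT4G10250) of the endoplasmic reticulum stood at 107 ± 16.3, HSP17.6II (AT5G12020) of cytosolic class II at 84.1 ± 6.26, HSFA2 (AT2G26150) at 34.2 ± 3.11 and HSP21 (AT4G27670) of the chloroplast at 25.6 ± 2.57. HSP18.2 (AT5G59720), of cytosolic class I like HSP17.4, was lowest at 3.20 ± 0.271. HSP17.6II and HSP17.6A lie next to each other on the minus strand of chromosome 5 (3882231 to 3883111 and 3883957 to 3884838, TAIR10.1), and HSP17.6A was far above its neighbour in dry seeds.

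**Figure D1:**
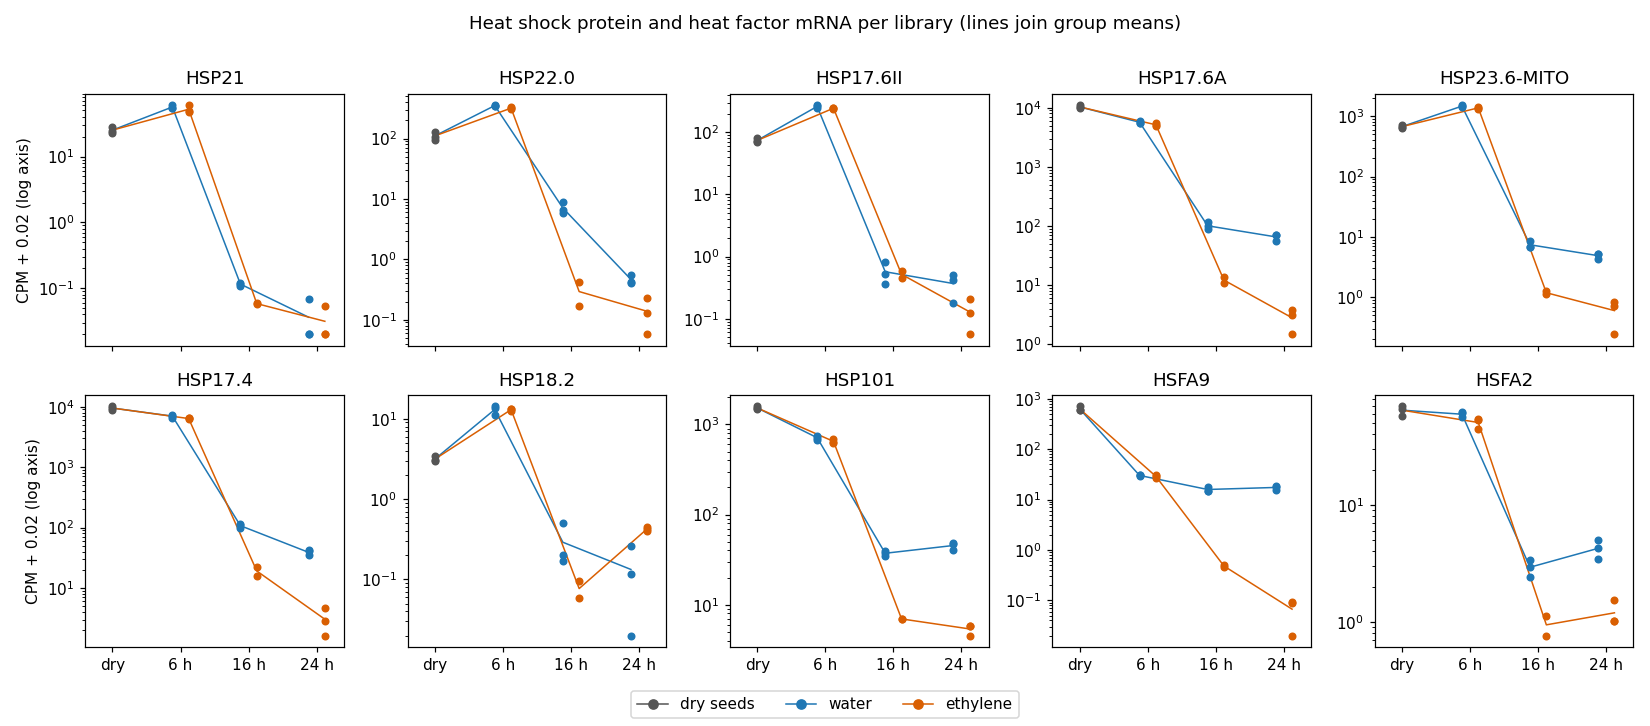
Level of each mRNA in each of the 20 libraries, as CPM + 0.02 on a log axis, against dry seeds and hours of imbibition; points are libraries and lines join group means. HSFA9 falls most within the first 6 h, and 5 small heat shock protein mRNAs rise first. The water and ethylene points lie apart from 16 h on except for HSP17.6II, whose points overlap, and HSP21, which had 1 read in each group at 24 h.

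Over the first 6 h in water HSFA9 fell, HSFA2 was not called and the chaperone mRNAs went both ways. HSFA9 read 594, 704 and 596 CPM in the 3 dry libraries and 30.5, 28.8 and 31.1 CPM after 6 h. It fell 21.0-fold (log2 fold change -4.39 ± 0.07, ± SE; adjusted p = 2.58e-32 in edgeR's quasi-likelihood test, adjusted over all genes tested). HSFA2 read 57.6, 65.8 and 69.0 CPM in dry seeds and 60.2, 61.4 and 56.2 CPM at 6 h, ranges that overlap. Its log2 difference of -0.11 ± 0.08 did not pass in this fit (adjusted p = 0.187), and passed as a decrease of 0.24 with size factors by relative log expression, which lower the median of all genes in this comparison by 0.1005.

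In the same 6 h, 5 small heat shock protein mRNAs rose. HSP18.2 went from 3.02, 2.93 and 3.43 CPM to 14.21, 11.1 and 13.8 CPM, a log2 fold change of 2.05 ± 0.17. HSP17.6II went from 73.1, 69.1 and 80.0 to 274, 247 and 262 CPM, a log2 fold change of 1.81 ± 0.06. HSP22.0 went from 109, 129 and 95.5 to 359.6, 348 and 352 CPM (1.67 ± 0.08). In all 3 every library at 6 h lay above every dry library. HSP21 went from between 23.0 and 27.9 CPM in dry libraries to between 54.3 and 60.2 CPM (1.16 ± 0.09), and HSP23.6-MITO from between 635 and 713 CPM to between 1414 and 1522 CPM (1.13 ± 0.06).

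HSP17.6A and HSP17.4, the most abundant in the dry seed, and HSP101 did not follow. HSP17.6A read 9729, 11081 and 10235 CPM in dry seeds and 5934, 5500.3 and 5627 CPM at 6 h, a decrease of 0.86 ± 0.09 on the log2 scale. HSP17.4 went from 8845, 10086 and 9537 CPM to 7397, 6525 and 7012 CPM, a decrease of 0.44 ± 0.10, and HSP101 from between 1465 and 1581 CPM to between 679 and 747 CPM, a decrease of 1.098 ± 0.06. The neighbours HSP17.6II and HSP17.6A thus moved in opposite directions. In all, 5 of the 10 were higher and 4 lower than in dry seeds, where 40.6% of all genes tested were higher and 34.5% lower. The 10 had a median log2 fold change of 0.51, against 0.10 over all genes. With the library that stood apart put back, 5 were higher and 2 lower: HSP17.6A and HSP17.4 no longer passed.

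From 6 to 16 h in water all 10 mRNAs fell, and 37.3% of all genes tested did so (38.9% rose). The 10 had a median log2 fold change of -5.72 against 0.02 over all genes. HSP21 dropped to 0.0964, 0.101 and 0.0896 CPM, or 6 reads over the 3 libraries, from 3062 at 6 h. HSP17.6II dropped to 0.337, 0.505 and 0.806 CPM (log2 fold change -8.85 ± 0.11) and HSP23.6-MITO to 6.70, 6.81 and 8.64 CPM (-7.62 ± 0.09). HSP17.4 was then at 98.7, 109 and 114 CPM (-6.02 ± 0.12) and HSP17.6A at 88.1, 99.2 and 115 CPM (-5.82 ± 0.12), still the highest of the 10 per kilobase. HSP22.0 was at 5.73, 6.56 and 8.96 CPM, HSP18.2 at 0.482, 0.151 and 0.179 CPM, HSP101 at 34.7, 37.1 and 39.7 CPM and HSFA2 at 2.41, 3.38 and 2.96 CPM, 19.1-fold to 49.5-fold below their 6 h levels. The smallest decrease was that of HSFA9, to 15.1, 15.04 and 17.42 CPM, 1.89-fold, which did not pass with the library that stood apart put back (adjusted p = 0.242).

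Between 16 and 24 h in water the course levelled off for the factors and HSP101. HSP101 read 47.5, 40.0 and 48.6 CPM at 24 h, above every 16 h library (log2 fold change 0.28 ± 0.08), and HSFA2 read 4.999, 3.44 and 4.26 CPM (0.50 ± 0.18, adjusted p = 0.0229). HSFA9 read 18.1, 15.5 and 18.7 CPM, which overlapped with 16 h (0.13 ± 0.09, adjusted p = 0.28). Further decreases were called in 4 small heat shock protein mRNAs. HSP22.0 went to 0.403, 0.393 and 0.539 CPM (a decrease of 3.96 ± 0.28 on the log2 scale) and HSP17.4 to 40.3, 34.5 and 41.9 CPM (1.47 ± 0.11). HSP17.6A went to 69.6, 55.6 and 71.4 CPM and HSP23.6-MITO to 5.24, 4.23 and 5.14 CPM, 1.55-fold and 1.54-fold lower. The counts of 2 higher and 4 lower stood beside 24.4% and 20.1% of all genes tested. HSFA2 did not pass without water 16 h replicate 1, water 24 h replicate 1 or water 24 h replicate 3 (adjusted p 0.067 to 0.109), and with the library that stood apart put back 0 were higher and 2 lower.

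**Figure D2:**
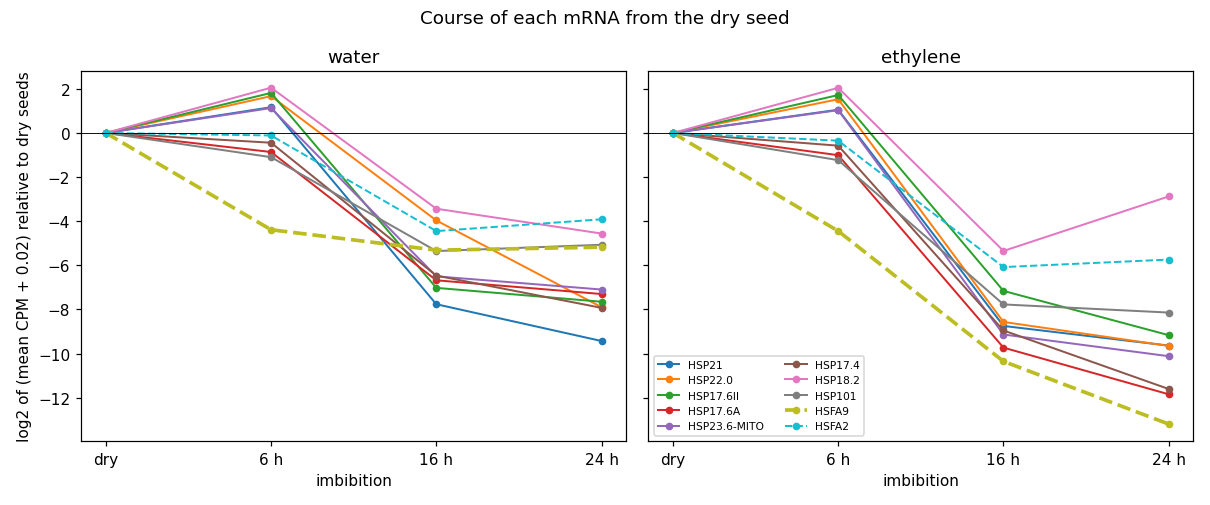
Course of the 10 mRNAs from the dry seed in water (left) and with ethylene (right), as the log2 ratio of group means, each CPM + 0.02, to dry seeds, against hours of imbibition; the 2 factors are dashed. In water HSFA9 drops most in the first 6 h, and all 10 fall from 6 to 16 h; with ethylene HSFA9 ends lowest, and HSP18.2 turns upward at 24 h (HSFA2 also lies higher then, by 0.36, not called).

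At 6 h ethylene left these mRNAs close to their water levels. HSFA2 read 54.2, 52.8 and 44.1 CPM with ethylene against 60.2, 61.4 and 56.2 CPM in water, without overlap, and was the 1 member called (log2 fold change -0.24 ± 0.07, adjusted p = 0.0396). That call was lost without ethylene 6 h replicate 3, water 6 h replicate 1 or water 6 h replicate 2, in DESeq2 and with the library that stood apart put back. HSFA9 read 29.0, 30.4 and 27.3 CPM with ethylene, a log2 difference of -0.06 ± 0.08, and HSP18.2 read 12.6, 13.3 and 13.03 CPM, a log2 difference of 0.003 ± 0.122. The other 7 lay 1.07-fold to 1.105-fold below water and did not pass. These counts of 1 lower and 0 higher compare with 4.34% and 4.54% of all genes tested. A fit of the 6 h groups alone called 5 lower, with HSP22.0, HSP17.6A, HSP17.4 and HSP101 added at decreases of 0.14 to 0.15 on the log2 scale.

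At 16 h the ethylene levels of most of these mRNAs were far below those in water. HSFA9 read 0.475 and 0.448 CPM with ethylene against 15.1, 15.04 and 17.42 CPM in water, a 34.0-fold difference (log2 fold change -5.09 ± 0.20, adjusted p = 4.46e-21). HSFA2 read 1.11 and 0.746 against 2.41, 3.38 and 2.96 CPM (-1.65 ± 0.26). HSP101 read 6.93 and 6.94 against 34.7, 37.1 and 39.7 CPM (-2.42 ± 0.11). In all 3 the groups were apart by more than the range within either.

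Among the small heat shock proteins, HSP22.0 read 0.396 and 0.149 CPM with ethylene against 5.73, 6.56 and 8.96 CPM in water (log2 fold change -4.70 ± 0.32). HSP17.6A read 13.5 and 10.8 against 88.1, 99.2 and 115 CPM (-3.06 ± 0.14), HSP23.6-MITO 1.11 and 1.23 against 6.70, 6.81 and 8.64 CPM (-2.66 ± 0.20), and HSP17.4 22.5 and 15.67 against 98.7, 109 and 114 CPM (-2.49 ± 0.14). HSP18.2 had 3 reads over the 2 ethylene libraries and 17 over the 3 water libraries, a 4.69-fold difference in reads per library size with a counting interval of 1.36 to 25 (95%, exact). Its call (adjusted p = 0.0119) was lost without ethylene 16 h replicate 1 or water 16 h replicate 1. HSP17.6II read 0.435 and 0.560 CPM against 0.337, 0.505 and 0.806 CPM, with overlap, a log2 difference of -0.15 ± 0.39. HSP21 had 2 reads over the ethylene libraries and 6 over the water libraries. Water was 2.48 times ethylene per library size, with counting limits of 0.444 and 25.2, so no difference was detectable at this depth. In all, 8 of the 10 were lower and 0 higher, beside 35.4% and 37.6% of all genes tested. The 10 had a median log2 fold change of -2.46 against 0.03 over all genes.

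The library labelled ethylene 16 h replicate 2 held these mRNAs at water levels. HSFA9 read 15.1 CPM there, HSP17.4 105 CPM, HSP17.6A 99.8 CPM and HSP101 38.5 CPM. With it put back, 3 of the 10 were lower than in water at 16 h: HSP23.6-MITO by 1.24, HSP101 by 1.101 and HSFA2 by 0.89 on the log2 scale. The other 7 then had adjusted p-values of 0.0504 to 0.705, HSP22.0 nearest the threshold. How this library came to hold water levels was not tested.

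**Figure D3:**
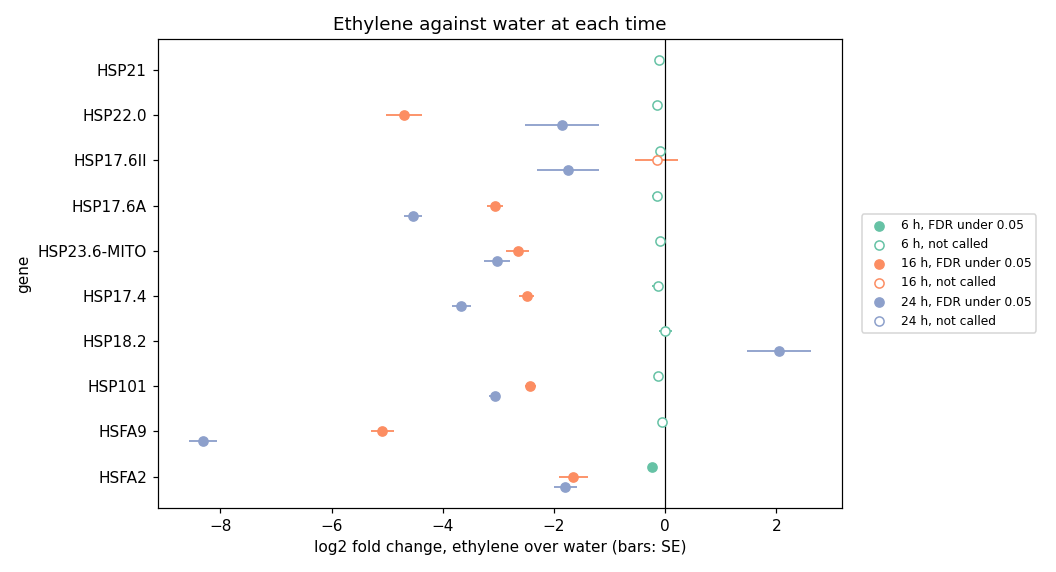
Log2 fold change of ethylene over water at 6, 16 and 24 h for each mRNA, with bars of 1 approximate SE. Filled points passed an FDR of 0.05. The bar of HSFA9 at 24 h rests on few reads and is shorter than counting error alone. Differences with 3 or fewer reads in a group (HSP21 at 16 and 24 h, HSP18.2 at 16 h) are not drawn; at 24 h HSFA9 lies farthest below 0 and HSP18.2 above it.

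At 24 h the difference had widened for HSFA9 and had turned for HSP18.2. HSFA9 read 0.0690, 0.0722 and 0 CPM with ethylene, 4 sense reads in all, against 18.1, 15.5 and 18.7 CPM in water (log2 fold change -8.32 ± 0.25, adjusted p = 1.03e-24). On so few reads this approximate SE is smaller than counting error alone, so the size of the fold is less certain than it shows. HSFA9 overlaps a small nucleolar RNA gene, AT5G54075, on the other strand, and the same ethylene libraries held 15 reads on that strand. HSFA2 read 1.52, 1.011 and 1.008 against 4.999, 3.44 and 4.26 CPM (-1.79 ± 0.21), and HSP101 5.76, 5.81 and 4.52 against 47.5, 40.0 and 48.6 CPM (-3.07 ± 0.09). No ethylene library reached a water library in any of the 3.

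With ethylene at 24 h, 5 small heat shock protein mRNAs were also lower. HSP17.6A read 3.83, 3.07 and 1.46 CPM against 69.6, 55.6 and 71.4 CPM (log2 fold change -4.54 ± 0.16) and HSP17.4 read 4.63, 2.82 and 1.61 against 40.3, 34.5 and 41.9 CPM (-3.67 ± 0.17). HSP23.6-MITO read 0.690, 0.831 and 0.224 against 5.24, 4.23 and 5.14 CPM (-3.02 ± 0.23). HSP22.0, at 0.207, 0.108 and 0.0373 against 0.403, 0.393 and 0.539 CPM, was lower by 1.86 ± 0.67, a call lost without ethylene 24 h replicate 3 (adjusted p = 0.0541) and with the library that stood apart put back. HSP17.6II, at 0.104, 0.0361 and 0.187 against 0.161, 0.393 and 0.490 CPM, was lower by 1.74 ± 0.56 although 1 ethylene library lay above 1 water library. HSP21 had 1 read in each group, and no fold is given.

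HSP18.2 was higher with ethylene at 24 h, alone among the 10. It read 0.380, 0.433 and 0.411 CPM, or 34 reads, against 0.242, 0 and 0.0980 CPM, or 5 reads, in water, a log2 fold change of 2.04 ± 0.58 (adjusted p = 0.00181). The groups did not overlap, and leaving out water 24 h replicate 1 or 2 moved the value to 2.90 or 1.39. On the other strand of HSP18.2, where no overlapping gene is annotated, the ethylene libraries held 1, 2 and 5 reads and the water libraries 1, 0 and 0. Over all genes 2.72% to 2.8% of the reads in these ethylene libraries were on that strand. The source of these reads was not tested. Over all genes tested 41.3% were higher and 41.3% lower, where 8 of the 10 were lower and 1 higher, with a median of -2.44 against 0.0009 over all genes. With the library that stood apart put back, 7 were lower and 1 higher. Without water 24 h replicate 3, the library with the high LHCB markers, 8 were lower and 1 higher.

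The difference between ethylene and water was tested for a change between times. From 6 to 16 h it became more negative for 8 of the 10 (HSP21 and HSP17.6II did not pass) and more positive for 0, where 30.9% and 28.6% of all genes tested changed that way. The change was largest for HSFA9, at -5.03 ± 0.23 on the log2 scale, and HSP22.0, at -4.56 ± 0.34, and smallest among those called for HSFA2, at -1.42 ± 0.27. With the library that stood apart put back, 0 of the 10 passed in edgeR, and the cause was not tested. From 16 to 24 h the difference became more negative for HSFA9 (-3.23 ± 0.68), HSP17.6A (-1.48 ± 0.23), HSP17.4 (-1.17 ± 0.23) and HSP101 (-0.65 ± 0.15), and more positive for HSP18.2 (4.15 ± 0.94) and HSP22.0 (2.84 ± 0.97). These 4 lower and 2 higher compare with 30% and 10.7% of all genes tested. HSP22.0 was by then near the detection limit in both groups, with 10 and 24 reads over 3 libraries, and its call was lost without ethylene 16 h replicate 3 or ethylene 24 h replicate 1. With the library that stood apart put back, 5 were more negative and 1 more positive.

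Within the ethylene series all 10 fell from 6 to 16 h, as 41.2% of all genes tested did, with a median log2 fold change of -8.56 against -0.01 over all genes. All 10 also fell with the library that stood apart put back. HSP22.0 and HSP23.6-MITO each fell 1164-fold, from 308 to 336 CPM and from 1315 to 1423 CPM at 6 h. The value of HSP22.0 rests on 14 reads with ethylene at 16 h. Its log2 fold change of -10.19 became -11.02 without ethylene 16 h replicate 1. HSFA9 fell 61.8-fold and HSFA2 54.2-fold. From 16 to 24 h, 6 fell further and HSP18.2 rose, beside 41.1% lower and 28.8% higher over all genes tested, and with the library put back 7 fell and 1 rose. HSFA9 fell 8.61-fold and HSP17.4 6.24-fold in that step. HSP18.2 rose from 3 reads to 34, 7.07 times per library size (counting limits 2.22 and 36). HSP101 fell by 0.37 ± 0.13 on the log2 scale, a call lost on leaving out any of the 3 dry libraries (adjusted p 0.103 to 0.109), ethylene 16 h replicate 1 or 3 or ethylene 24 h replicate 3, and lost in DESeq2 and with the other scaling.

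Over the whole course all 10 mRNAs ended below the dry seed in both series. In water at 24 h, where 37.5% of all genes tested lay lower, the decreases ran from 15.5-fold (HSFA2) to 245-fold (HSP17.4) for the 9 with more than 3 reads, and for HSP21 dry seeds held 1340 times the water level (counting limits 239 and 52900). With ethylene at 24 h, where 42.4% lay lower, they ran from 7.56-fold (HSP18.2) to 11630-fold (HSFA9, which rests on 4 reads) for the same 9. Summed over the 10, the level went from 21623 to 24263 CPM in dry seeds to 154 to 191 CPM in water and 9.44 to 17.2 CPM with ethylene at 24 h.

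Other lists of the chaperone system were counted beside these genes. The other lists, like the 10, were chosen with earlier results of these data known. Of 12 other small heat shock protein genes, 9 rose and 1 fell in the first 6 h in water, with a median of 0.76. By 6 h 11 of 12 HSP70 family genes and all 7 HSP90 family genes rose, with medians of 3.11 and 2.16 where all genes had 0.10. Over all genes tested 40.6% were higher and 34.5% lower in that step. BIP3, an HSP70 of the endoplasmic reticulum, had 0 reads in the dry libraries and 64 over the 3 libraries at 6 h, at least 11.1-fold higher (against a floor of 3 reads over the group). Hsp70-2 rose by 6.43 ± 0.17 on the log2 scale, AT3G09440 of the same family by 5.09 ± 0.11 and the endoplasmic HSP90.7 by 2.53 ± 0.12. HSP70 genes resemble each other, so reads could be split between copies. From 6 to 16 h, where 37.3% of all genes tested fell and 38.9% rose, 10 other small heat shock protein, 11 HSP70 and 6 HSP90 genes fell and 1 of each of the last 2 families rose, with HSP90.1, the heat-inducible cytosolic form, lower by 5.63 ± 0.07.

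With ethylene at 16 h the families differed in their counts, beside 35.4% lower and 37.6% higher over all genes tested. Among the 12 other small heat shock protein genes 7 were lower than in water and 3 higher. AT4G21870 was higher by 4.43 ± 0.14 on the log2 scale, while AT1G52560 and AT2G19310 were lower by 2.58 ± 0.18 and 2.31 ± 0.11. In the HSP70 family 8 were higher and 3 lower, with AT3G09440 higher by 3.00 ± 0.11, Hsp70-2 higher by 2.95 ± 0.12 and the heat-inducible Hsp70b lower by 2.08 ± 0.11. In the HSP90 family 6 of 7 were higher, such as HSP90.2 by 1.096 ± 0.07 and HSP90.3 by 1.08 ± 0.07, and the seventh, HSP90.1, was lower by 1.35 ± 0.08. Of 11 co-chaperones and heat response partners 5 were higher and 5 lower, with the organizing protein genes Hop3 lower by 2.11 ± 0.08 and Hop1 higher by 1.503 ± 0.07, and HSA32, which prolongs acquired thermotolerance, lower by 1.95 ± 0.10. The organelle disaggregases CLPB4 and CLPB3 were lower by 0.72 ± 0.07 and higher by 0.20 ± 0.06. With the library that stood apart put back, 7 other small heat shock protein genes were lower and 1 higher, and 6 HSP70 genes higher and 3 lower.

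At 24 h, beside 41.3% in each direction over all genes tested, 7 other small heat shock protein genes were lower and 2 higher, 8 HSP70 genes higher and 3 lower, and 6 HSP90 genes higher and 1 lower, again HSP90.1, by 1.69 ± 0.08. Both organelle disaggregases were lower, CLPB4 by 1.41 ± 0.07. Of the co-chaperones and partners 5 were higher and 4 lower (3 lower with the other scaling, under which 1 called gene changed sign), with HSA32 lower by 2.51 ± 0.09.

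**Figure D4:**
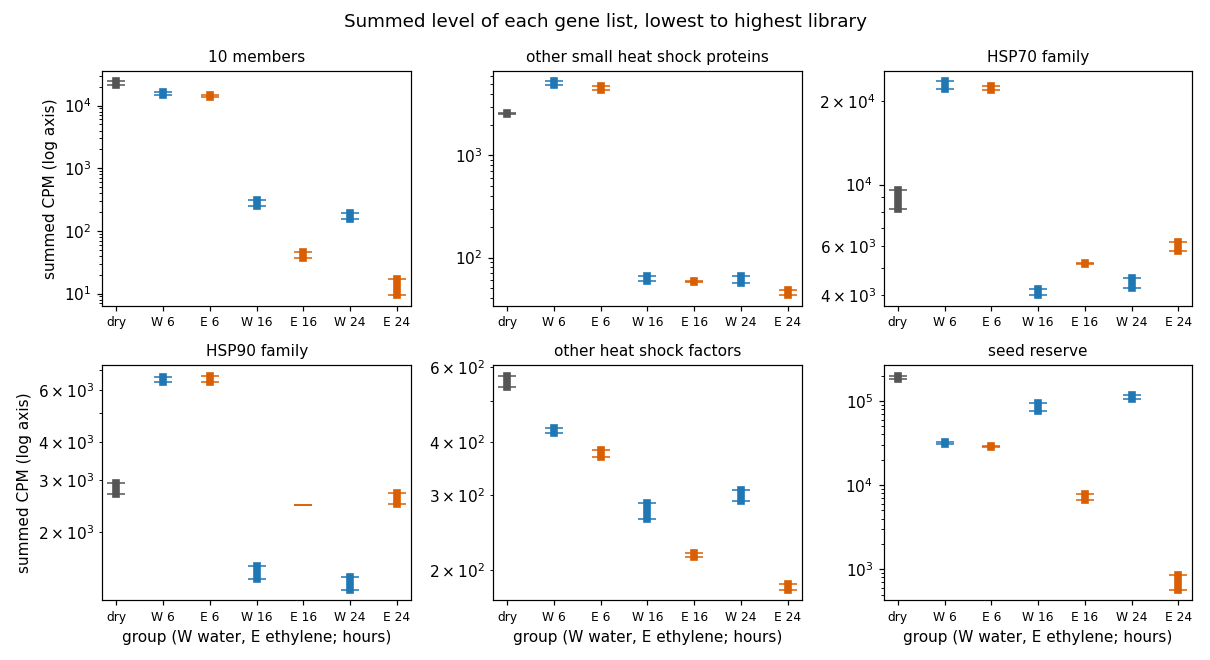
Summed CPM (log axis) of the 10 mRNAs and of 5 other lists in each group, W for water and E for ethylene at 6, 16 and 24 h; each bar runs from the lowest to the highest library. The HSP70 and HSP90 sums lie higher with ethylene than in water at 16 and 24 h, and the sums of the 10 and of the seed reserves lie lower.

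Among the other heat shock factors, 19 genes of which 16 were tested, calls went in both directions. In the first 6 h in water 4 rose and 11 fell, beside 40.6% and 34.5% of all genes tested, with HSFB1, a class B factor known as a repressor, higher by 2.69 ± 0.07 and HSFA7B lower by 2.61 ± 0.10. With ethylene 1 was higher and 4 lower than in water at 6 h, beside 4.54% and 4.34% of all genes tested. At 16 h 6 were higher and 7 lower beside 37.6% and 35.4%, shares near those of all genes, and at 24 h 5 and 10 beside 41.3% each way. HSFA3 was higher by 3.59 ± 0.39 at 16 h and 2.79 ± 0.23 at 24 h, at low levels. At 16 h it ran at 0.0896 to 0.202 CPM in water and at 1.49 to 2.49 CPM with ethylene. At 24 h it ran at 0.441 to 1.13 CPM in water and at 5.08 to 5.45 CPM with ethylene. HSFC1 was lower by 0.86 ± 0.10 at 6 h and by 2.63 ± 0.11 at 16 h, and HSFA4A by 1.99 ± 0.13 at 16 h and 3.71 ± 0.15 at 24 h.

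The genes of 3 regulators that are not heat shock factors, ABI3, ABI5 and DREB2A, were followed beside these factors. ABI3, the seed regulator named above, ran at 238 to 260 CPM in dry seeds. In water it ran at 348 to 360 CPM at 6 h, 442 to 449 CPM at 16 h and 387 to 414 CPM at 24 h. From 16 to 24 h in water ABI3 was lower by 0.14 ± 0.05 on the log2 scale. HSFA9 fell in water up to 16 h and was not called from 16 to 24 h. With ethylene ABI3 ran at 264 to 275 CPM at 6 h, 216 to 234 CPM at 16 h and 67.1 to 70.2 CPM at 24 h, below water each time by 0.38 ± 0.05, 0.99 ± 0.05 and 2.55 ± 0.05 on the log2 scale. ABI5, a factor of the abscisic acid response, fell by 3.35 ± 0.05 in the first 6 h in water. It then rose in water by 0.62 ± 0.05 from 6 to 16 h and by 0.22 ± 0.05 from 16 to 24 h. With ethylene ABI5 differed from water by -0.27, -1.93 and -3.76 on the log2 scale at the successive times. DREB2A, a dehydration factor known to activate HSFA3 in heat, differed by -0.51, -2.11 and -3.57. All 3 genes passed as lower at each time, beside 4.34%, 35.4% and 41.3% of all genes tested at 6, 16 and 24 h. With the library that stood apart put back 0 of 3 passed at 6 h. At 16 and 24 h DREB2A was lower and HSFA3 higher with ethylene.

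The mRNAs of seed reserves moved with the ethylene difference too. Their 11 genes were all lower with ethylene at 16 and 24 h, with medians of -3.46 and -6.87 on the log2 scale, and 3 were lower at 6 h. Over all genes tested 35.4%, 41.3% and 4.34% were lower at 16, 24 and 6 h. With the library that stood apart put back, 4 passed at 16 h and 0 at 6 h. The summed level was 76760 to 94958 CPM in water and 6634 to 7827 CPM with ethylene at 16 h, and 105759 to 116447 against 573 to 845 CPM at 24 h. In water the reserve sum was 30859 to 32841 CPM at 6 h and higher at 16 and 24 h, but its genes went both ways. From 6 to 16 h 5 rose and 4 fell, with a median of 0.02, where 38.9% of all genes tested rose and 37.3% fell. CRA1 rose by 2.65 ± 0.11 and EM1 by 1.68 ± 0.08, and SESA4 fell by 1.25 ± 0.06. From 16 to 24 h 3 rose and 6 fell, with a median of -0.21, beside 24.4% and 20.1%. The sum of the 10 fell from 14900.1 to 16398 CPM at 6 h to 252 to 308 CPM at 16 h. Of 3 endosperm markers EPR1 was lower with ethylene by 2.46 ± 0.10 and 3.27 ± 0.09 at 16 and 24 h. EXPA2 was higher by 2.29 ± 0.16 and 2.68 ± 0.15, and MAN7 was lower by 0.59 ± 0.08 at 16 h and higher by 0.17 ± 0.07 at 24 h. The summed endosperm level at 16 h, 9327 to 10579 CPM in water and 1968 to 2183 CPM with ethylene, was mostly EPR1, at 9184 to 10468 and 1687 to 1907 CPM. All 3 markers of the embryo root tip were higher at both times, where 37.6% and 41.3% of all genes tested were, and summed to 37.4 to 41.1 CPM in water and 52.0 to 53.0 CPM with ethylene at 16 h. Of the photosynthetic markers RBCS1A was higher with ethylene, by 1.56 ± 0.06 and 1.27 ± 0.05 at the same times. LHCB1.1 and LHCB3 were not called at 16 h and were called lower at 24 h, where water 24 h replicate 3 holds nearly all of their water reads. The part of cell composition or of germination stage in the differences of the 10 was not tested.

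Over the 20 libraries, which fall into 7 groups and share scaling, the 9 genes other than HSFA9 correlated with each other at 0.824 to 0.996 (Pearson's r of log2 CPM, 36 pairs, given as a description). HSFA9 correlated with the 9 at 0.499 to 0.893. Outside the 10, the genes most like HSFA9 among 14557 compared were ABCC14 (r = 0.9974), AT2G18340, a late embryogenesis abundant domain gene (0.9971), and AT1G08170, a histone family gene (0.9966). AT1G08170 went from a mean of 1414 CPM in dry seeds to 49.5 CPM at 6 h in water and to 0.154 CPM with ethylene at 24 h. Pearson's r does not measure the size of a change. Over the first 6 h in water ABCC14 went from a mean of 925 to 358 CPM and AT2G18340 from 760 to 69.6 CPM. HSFA9 went from a mean of 631 to 30.1 CPM in that step. The genes most like HSFA2 were UBC2, a ubiquitin-conjugating enzyme (0.9966), and the small heat shock protein genes AT1G54050 and AT2G19310 (0.9916 each). From 6 to 16 h in water UBC2 went from a mean of 177 to 59.8 CPM. AT1G54050 went from 403 to 9.44 CPM and AT2G19310 from 305 to 21.6 CPM, where HSFA2 went from 59.2 to 2.92 CPM. The genes most like HSP101 were AT3G10020 (0.998), the DnaJ family gene AT2G20560 (0.9978) and HSA32 (0.9959).

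The mapping limits looked at touched few of these values. Of all 50-base windows within single exons, 0 had an exact copy elsewhere in the genome for 8 of the 10. The share was 0.196% for HSP101 and 6.15% for HSFA9. Windows across exon junctions and near-identical copies were not searched. HSP17.4 overlaps AT3G07365 and AT3G46220 on the other strand, and in the count that ignores strand its dry-seed reads fell from 270373 to 41270, so its level depends on the use of sense reads. Its calls were the same in both counts. HSP101 overlaps AT1G74300 on the other strand, and its reads in dry replicate 1 were 14600 by strand and 14250 without strand.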

How the data were processed

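RNA was measured in 21 seed libraries, whose titles gave the group and the replicate number. Raw read counts for each gene were deposited, made by the authors with STAR on TAIR10, per the submitters' processing notes; the STAR version was not given in the sources used here. Each file had 3 columns of counts (both strands, forward and reverse), per the file headers, and the reverse counts, which hold the sense reads, were used. Their total was 11687098 to 21198649 per library. The 10 genes and the other lists were chosen with earlier results of these data known. Genes of the other lists were named as the up to 3 called members with the largest change per comparison, and the genes most like 3 members by correlation (mean log2 CPM of at least 1).

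Tests used edgeR 4.0.16 in R 4.3.3: the 2-sided quasi-likelihood F test, TMM scaling, edgeR's default filter (at least 10 reads, 15 in total), which kept 19298 genes, and p-values adjusted over these by Benjamini-Hochberg with a threshold of 0.05 (FDR), in 1 fit of 20 libraries with a mean per group. The fit left out the library labelled ethylene 16 h replicate 2. CPM used the same scaling, and CPM per kilobase the exon length in TAIR10.1. The SE was approximated as the size of the log2 fold change over the square root of F. For large changes on few reads this can be smaller than counting error alone. Such cases are HSFA9 with ethylene at 24 h, HSP22.0 with ethylene at 16 h and HSP17.6II in water at 16 h. Where a group held 1 to 3 reads, a ratio with a 95% exact counting interval is given, which covers counting error only. In data simulated for ethylene against water at 16 h on 18369 genes, the test recovered 99 of 100 genes changed 4-fold and 90 of 100 changed 2-fold. False calls made up 3.57% of those made. Every gene was simulated with the same biological coefficient of variation, 0.0466, and with its mean level over the 20 libraries. The 10 genes lay far below such means at 16 h, so this recovery does not describe them. Other scalings, DESeq2 1.42.0, filters, strands, thresholds, a replicate block and leaving out each library in turn were tried. Same-numbered libraries did not deviate together (57 pairs, r from -0.0993 to 0.08).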

Additional observations from a re-analysis of the deposited data

Results flagged for a closer look

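The difference between ethylene and water changed between times, by the test of the change itself, in 14 cases. From 6 to 16 h it became more negative by 4.56 on the log2 scale (-4.56) for HSP22.0, -2.91 for HSP17.6A, -2.56 for HSP23.6-MITO, -2.36 for HSP17.4, -2.12 for HSP18.2, -2.29 for HSP101, -5.03 for HSFA9 and -1.42 for HSFA2. These 8 values rest on the 2 ethylene 16 h libraries kept, and the value of HSP18.2 on 3 reads in them. From 16 to 24 h the difference changed by -1.48 for HSP17.6A, -1.17 for HSP17.4, -0.65 for HSP101 and -3.23 for HSFA9. It changed by 2.84 for HSP22.0 and by 4.15 for HSP18.2, both counted on few reads. The values from 16 to 24 h rest on the same 2 ethylene 16 h libraries. With the library that stood apart put back, that of HSP22.0 became -0.231. Over all genes tested, 30.9% became more negative and 28.6% more positive from 6 to 16 h. From 16 to 24 h these shares were 30% and 10.7%.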

How the results depend on the processing

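Of the values under settings other than leaving out a library, 894 kept their direction and side of the threshold, 36 lost the call, 9 gained it and 10 changed direction; on leaving out 1 library these counts were 2355, 21, 7 and 17. Size factors by relative log expression moved the median of all genes by up to 0.2328 (ethylene against water at 24 h). The cause of the moves below was not tested. Ethylene against water at 6 h, 1 member lower: 0 with the library labelled ethylene 16 h replicate 2 put back, 0 in DESeq2, 0 at an FDR of 0.01, 5 with the groups compared only, and 0 to 2 on leaving out 1 library. With that library put back, 3 were lower at 16 h, 2 were lower at 6 h in water than in dry seeds, 0 were higher and 2 lower from 16 to 24 h in water, and the change of the ethylene difference counted 0 lower from 6 to 16 h and 1 higher from 16 to 24 h. At an FDR of 0.01, 1 was higher from 16 to 24 h in water and 1 in the change of the difference from 16 to 24 h; on leaving out 1 library both counts ran from 1 to 2. Direction changed only for values that were not called or rested on few reads or on the library put back. HSP18.2 at 6 h, at 0.003, became -0.0047 with that library, -0.0049 with the other scaling, -0.0139 with either-strand counts, -0.0088 in DESeq2 and -0.1113 to 0.0629 on leaving out 1 library. On leaving out 1 library HSP17.6II at 16 h ran from -0.4079 to 0.2488 (without water 16 h replicate 3) and HSP21 at 24 h from -1.9548 to 1.532 (without water 24 h replicate 2). HSFA2 from 16 to 24 h with ethylene became -0.4017 with that library. For the change of the difference from 6 to 16 h, HSP17.6II became 0.0331 with the other scaling, 0.032 with the groups only, 0.0337 in DESeq2 and -0.3122 to 0.3442 on leaving out 1 library. For that from 16 to 24 h, HSP22.0 became -0.231 with that library, and HSFA2 0.0044 with the other scaling; on leaving out 1 library HSP21 ran from -0.773 (without ethylene 24 h replicate 1) to 2.7165, HSP23.6-MITO from -0.6809 to 0.0162 (without ethylene 24 h replicate 3) and HSFA2 from -0.3954 to 0.1776 (without ethylene 16 h replicate 1). The replicate block changed 0 calls of these genes, with 8 lower at 16 h. Depth limits HSP21 and HSP18.2 from 16 h on. Counting the other lists under other scalings and with that library was chosen after seeing the data.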
